A study of Mus musculus with 12 samples.

Results

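The enzymes that hydroxylate and crosslink collagen were followed across mouse livers with fibrosis and during its regression, with or without exosomes from human cells. The set holds 10 genes, defined by their names, out of 21936 genes in the deposited table. They are the lysyl oxidases Lox, Loxl1, Loxl2 and Loxl3, the lysyl hydroxylases Plod1, Plod2 and Plod3, and the prolyl 4-hydroxylase subunits P4ha1, P4ha2 and P4hb. All 10 had counts in every one of the 9 liver libraries. On GRCm38, the build of the table, the protein-coding genes on which the results turn are Loxl1 (chromosome 9, 58287738 to 58313186, minus strand), Loxl2 (chromosome 14, 69609068 to 69695834, plus strand), Plod2 (chromosome 9, 92542223 to 92608428, plus strand), P4ha1 (chromosome 10, 59323296 to 59373304, plus strand) and P4ha2 (chromosome 11, 54100095 to 54131665, plus strand).

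Collagen chains are modified inside the endoplasmic reticulum (ER) before they leave the cell. Prolyl 4-hydroxylase, an assembly of alpha subunits (P4ha1, P4ha2) with the beta subunit P4hb, hydroxylates prolines and so lets the triple helix hold at body temperature, while the lysyl hydroxylases prepare lysines for glycosylation and for stable crosslinks. These hydroxylases use iron and ascorbate. Once collagen and elastin are outside the cell, lysyl oxidases, which depend on copper, oxidize lysine side chains, and the products join neighbouring fibres. In injured liver, activated hepatic stellate cells are the main known makers of fibrillar collagen, and crosslinked scar is known to be harder to remove.

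Liver RNA came from male C57BL/6 mice (substrain C57BL/6J in the methods of the study) in 3 groups with 3 libraries each. Carbon tetrachloride (CCl4), a toxin of hepatocytes, had been injected into the peritoneum of all these mice at 1 mL/kg, 2 times per week for 8 weeks, from an age of about 6 weeks on arrival. Livers of the fibrosis group (LFG) were taken at the end of these injections. Mice of the regression group (REG) were then given 200 µL of phosphate-buffered saline into the tail vein over 4 weeks, at 2 injections per week, and those of the hADMSCs-Exo group 250 µg of exosomes in the same volume and schedule, the exosomes being vesicles shed by cultured human adipose mesenchymal stem cells. Time since the last CCl4 injection, age and the saline or exosome injections therefore cannot be told apart in the comparisons with LFG, and no uninjured liver was analysed here. Nothing in the labels ties each library to a separate mouse, so p-values measure the spread between these libraries only.

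Total counts ran from 13837445 to 19840917 per library. Hepatocyte markers were high throughout, with a summed level of 55087 to 81506 FPKM (counts divided by the length of the gene and the total of the library) over 10 genes. LFG 3 stood apart from LFG 1 and LFG 2: the summed FPKM of 10 hepatic stellate cell markers was 133 in LFG 1, 109 in LFG 2 and 26.6 in LFG 3, that of 8 activated myofibroblast markers was 58.9, 41.3 and 2.11, and that of 9 macrophage markers was 772, 398 and 41.3. The labels say nothing that sets this library apart, and it was singled out from its values. Of 12760 genes kept over the 9 libraries, 25.3% were lowest in LFG 3, and so were 3 of the 10 enzymes (Lox, Loxl2 and Loxl3). Comparisons of the enzymes and of the gene lists with LFG are given with and without it.

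Compared per length, P4hb was far above the other enzymes in every library. Its level was 594 ± 132 FPKM in LFG, 548 ± 28.0 in REG and 533 ± 23.8 in hADMSCs-Exo (mean ± SD, n = 3), a range of 458 to 720 over the 9 libraries. In LFG, P4ha1 at 9.03 ± 3.25 FPKM, Plod1 at 8.61 ± 2.98 and Plod3 at 6.45 ± 1.07 came next and did not separate from each other beyond their spread. The lysyl oxidases, P4ha2 and Plod2 had means from 0.689 to 2.78 FPKM there, with ranges that overlapped except between P4ha2 (1.43 to 1.70) and Plod2 (0.0938 to 1.16). In REG and hADMSCs-Exo the order began P4hb, Plod1, Plod3, P4ha1 by mean level, with Lox last at 0.0879 ± 0.0223 FPKM in REG and 0.142 ± 0.0167 in hADMSCs-Exo. Because tissue was sequenced whole, fewer cells of a type and less RNA per cell cannot be told apart in any of these levels.

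**Figure D1:**
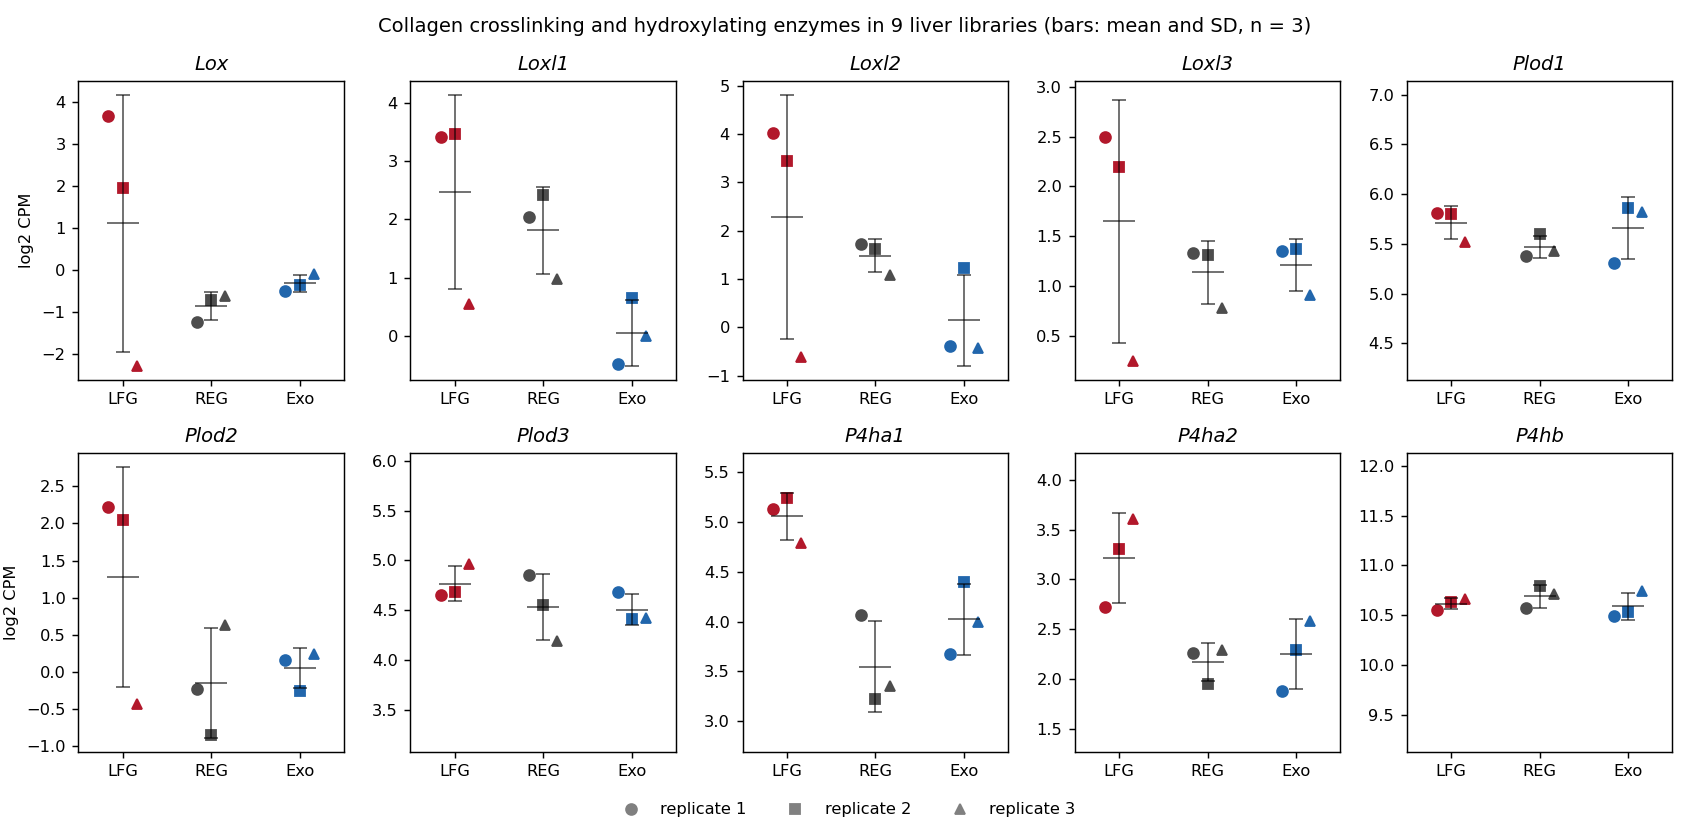
Log2 CPM (counts scaled to library size, with a prior count of 2) of each enzyme in the 9 libraries, with 1 panel per gene, 1 point per library and the mean and SD of each group (n = 3) as bars. The vertical axes differ in position between panels. Lox, Loxl1, Loxl2, Loxl3 and Plod2 spread widely within LFG because LFG 3 is low, P4ha1 and P4ha2 have all 3 LFG points above the others, and P4hb lies between 10.49 and 10.79 throughout.

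Lox, the first known enzyme of the oxidase family, was abundant only in LFG 1 and LFG 2 by its counts. It had 298, 67 and 1 counts in LFG 1, 2 and 3, then 5, 9 and 10 in the REG libraries and 10, 11 and 13 in the hADMSCs-Exo libraries. LFG 1 and LFG 2 exceeded all 6 later libraries and LFG 3 was below all 6, so the groups overlapped. Against LFG, the log2 fold change in hADMSCs-Exo was -3.01 ± 1.25 (SE), with an unadjusted p of 0.0474 and an adjusted p of 0.805 by edgeR's quasi-likelihood test, adjusted by Benjamini-Hochberg over all genes tested. Leaving out LFG 1 moved that fold change to -1.50. In REG, edgeR's filter on low counts left Lox out, and a fit without the filter gave -3.56 ± 1.23.

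Loxl1, which is known for keeping elastic fibres intact, was the enzyme with the largest difference between hADMSCs-Exo and REG. Its log2 CPM was 3.42, 3.47 and 0.54 in LFG, 2.04, 2.42 and 0.98 in REG, and -0.50, 0.64 and -0.0028 in hADMSCs-Exo. Every hADMSCs-Exo library was below every REG library, while LFG 3 lay among the hADMSCs-Exo values. Counts were few, at 10 to 24 in the hADMSCs-Exo libraries and 35 to 95 in the REG libraries. The log2 fold change of hADMSCs-Exo against REG was -1.91 ± 0.49, with an unadjusted p of 0.00422 that became an adjusted p of 0.38 by edgeR's quasi-likelihood test. With DESeq2 the fold change was -1.93 ± 0.52 and the adjusted p 0.0318, past the threshold, as for 0.543% of all genes by that tool.

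Loxl2, which crosslinks collagen of basement membranes and of scar, had a log2 CPM of 4.03, 3.45 and -0.62 in LFG, 1.73, 1.62 and 1.09 in REG, and -0.38, 1.23 and -0.42 in hADMSCs-Exo. The second hADMSCs-Exo library reached the REG range and the other 2 were below it. Counts were 10 to 37 in the hADMSCs-Exo libraries and 38 to 54 in the REG libraries. The log2 fold change against REG was -1.21 ± 0.53, with an unadjusted p of 0.0482 and an adjusted p of 0.493 by edgeR's quasi-likelihood test. Leaving out the second hADMSCs-Exo library moved that fold change to -2.08, and leaving out the third moved it to -0.92. An antisense gene covers 5.57% of its exon bases, so part of its count is uncertain.

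Loxl3, the family member known from palate and spine development, had a log2 CPM of 2.49, 2.20 and 0.25 in LFG, 1.33, 1.31 and 0.77 in REG, and 1.35, 1.37 and 0.91 in hADMSCs-Exo. The REG and hADMSCs-Exo values ran side by side, with a log2 fold change of 0.07 ± 0.32, and only LFG 1 and LFG 2 were above both. Its exons share 11.62% of their bases with Htra2 on the opposite strand, and since the use of strand in counting is not given, part of its count is uncertain.

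Within the family the mix of transcripts differed between hADMSCs-Exo and REG. Summed over the 4 genes, the level was 7.37 ± 6.59 FPKM in LFG (13.8, 7.70 and 0.613), 2.06 ± 0.649 in REG and 1.13 ± 0.357 in hADMSCs-Exo. Loxl1 held 49.6% ± 8.64 of that sum in REG, with 40.4% to 57.6% over the libraries, and 25.4% ± 5.62 in hADMSCs-Exo, with 18.9% to 28.7%. Loxl3 held 21.8% ± 3.08 in REG and 43.8% ± 10.5 in hADMSCs-Exo, and it was the most abundant oxidase transcript in all 3 hADMSCs-Exo libraries, where it ranged from 35.2% to 55.4%. Loxl1 was the most abundant in all 3 REG and all 3 LFG libraries. These shares were not tested, and since Loxl3's own level was alike in REG and hADMSCs-Exo, its larger share there stands beside the lower Loxl1.

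**Figure D2:**
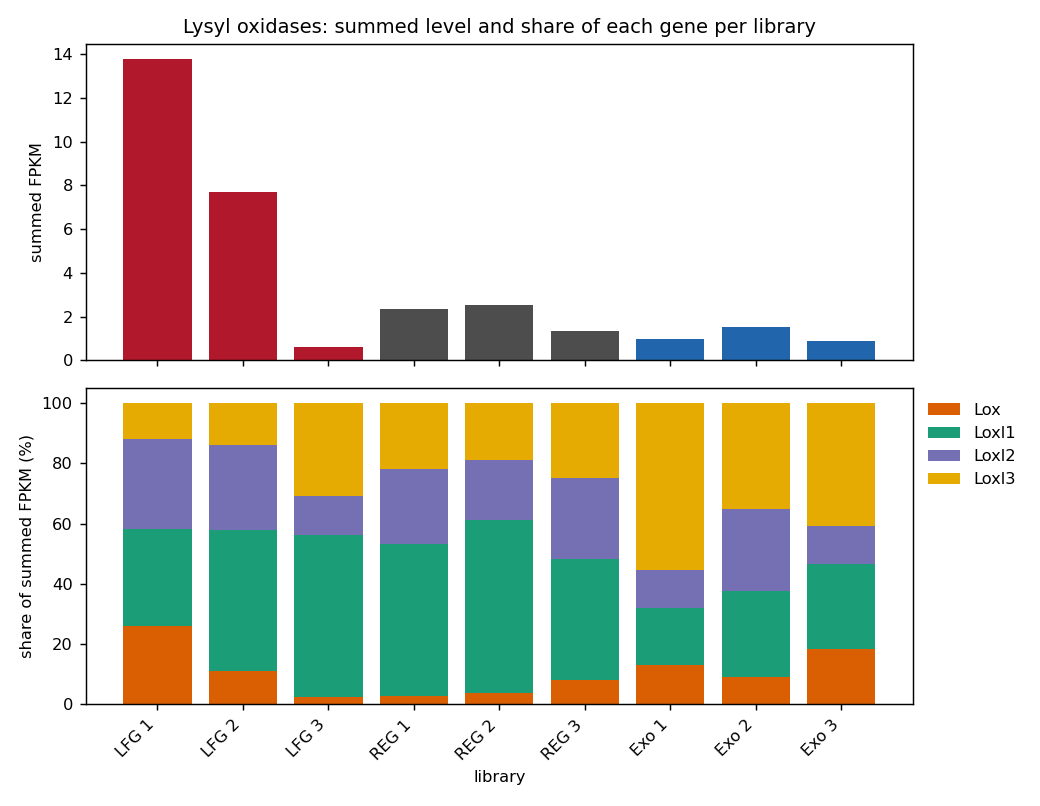
Lysyl oxidase transcripts in each library: the upper panel gives the summed FPKM of Lox, Loxl1, Loxl2 and Loxl3, the lower panel the percentage of that sum held by each gene. The sum is 13.8 FPKM in LFG 1 and 0.877 to 1.54 in hADMSCs-Exo, where Loxl3 takes the largest share.

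Among the lysyl hydroxylases, Plod2 was high in LFG 1 and LFG 2 and low in LFG 3, as the oxidases were. Over the 6 later libraries its log2 CPM correlated negatively with that of Loxl1 (r = -0.646), Loxl2 (r = -0.535) and Loxl3 (r = -0.732), at few counts. With that of Lox the correlation was positive (r = 0.310). Plod2 encodes the enzyme that hydroxylates lysines in the ends of the collagen chain, which gives the crosslinks typical of scar. It had 108, 72 and 7 counts in LFG, 12, 8 and 27 in REG and 17, 12 and 17 in hADMSCs-Exo. LFG 1 and LFG 2 were above every later library, and LFG 3 was below all but the second REG library once scaled to depth. The log2 fold change was -1.80 ± 0.80 in REG and -1.74 ± 0.73 in hADMSCs-Exo, both against LFG, with adjusted p of 0.456 and 0.805 by edgeR's quasi-likelihood test. A gene of unknown coding status on the opposite strand covers 6.42% of its exon bases, so part of its count is uncertain.

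Plod1, which hydroxylates lysines within the helix, and Plod3, which also adds sugars to hydroxylysine, had nearly level values. The log2 CPM of Plod1 was 5.82, 5.80 and 5.52 in LFG, 5.38, 5.60 and 5.43 in REG, and 5.30, 5.86 and 5.82 in hADMSCs-Exo. That of Plod3 was 4.66, 4.68 and 4.97 in LFG, 4.85, 4.55 and 4.19 in REG, and 4.69, 4.41 and 4.42 in hADMSCs-Exo. The groups overlapped for both genes in every comparison. The fold changes over the 3 comparisons lay between -0.27 and 0.21 on the log2 scale, with standard errors of 0.16 to 0.23. Plod3 shares 11.71% of its exon bases with Znhit1 on the opposite strand, so part of its count is uncertain, by an amount that was not measured.

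Plod1 and Plod3 made up nearly all lysyl hydroxylase transcript. Of the summed FPKM, Plod1 held 54.0% ± 4.14 in LFG, 55.3% ± 5.97 in REG and 58.9% ± 7.91 in hADMSCs-Exo. The share of Plod2 was 5.74%, 5.12% and 0.842% in LFG 1, 2 and 3 and at most 2.5% in any later library. It was thus higher in LFG 1 and LFG 2 than in all other libraries, and the share in LFG 3 lay within the later range.

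The alpha subunits of prolyl 4-hydroxylase gave the clearest separation of LFG from the later groups. For P4ha1, which encodes the main alpha subunit, the log2 CPM was 5.13, 5.24 and 4.79 in LFG, 4.07, 3.22 and 3.35 in REG, and 3.68, 4.39 and 3.99 in hADMSCs-Exo. All 3 LFG libraries, LFG 3 among them, were above all 6 later ones. In FPKM, scaled by length and library total alone, LFG 3 at 5.41 was only just above hADMSCs-Exo 2 at 5.12. The log2 fold change was -1.46 ± 0.29 in REG, with an unadjusted p of 0.00143 and an adjusted p of 0.262 by edgeR's quasi-likelihood test, and -1.03 ± 0.25 in hADMSCs-Exo, with 0.00451 and 0.805. With DESeq2 the REG difference had an adjusted p of 0.00159 and the hADMSCs-Exo difference 0.0613.

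P4ha2, the other alpha subunit expressed here, had a log2 CPM of 2.72, 3.31 and 3.61 in LFG, 2.26, 1.95 and 2.29 in REG, and 1.88, 2.29 and 2.58 in hADMSCs-Exo. Again no later library reached the lowest LFG value, and LFG 3 was the highest of all 9 by log2 CPM. In FPKM, scaled by length and library total alone, LFG 2 was the highest at 1.70, with LFG 3 at 1.56 and LFG 1 at 1.43. The log2 fold change was -1.09 ± 0.32 in REG and -1.0 ± 0.34 in hADMSCs-Exo, with unadjusted p of 0.0114 and 0.0213 and adjusted p of 0.353 and 0.805 by edgeR's quasi-likelihood test. Between hADMSCs-Exo and REG, the fold changes were 0.45 ± 0.28 for P4ha1 and 0.10 ± 0.26 for P4ha2, with overlapping groups. P4ha3, the remaining alpha subunit gene, had between 0 and 5 counts in each library.

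The beta subunit did not follow the alpha subunits. P4hb is also a general disulfide isomerase of the ER and a subunit of the triglyceride transfer protein that loads lipoproteins in hepatocytes. Its log2 CPM was 10.55, 10.63 and 10.66 in LFG, 10.57, 10.79 and 10.71 in REG, and 10.49, 10.53 and 10.74 in hADMSCs-Exo. The groups overlapped in every comparison, and the log2 fold changes were 0.09 ± 0.23 in REG and -0.03 ± 0.25 in hADMSCs-Exo against LFG. The ratio of P4hb to the summed alpha subunits, in FPKM, was 54.5, 51.7 and 65.4 in LFG, 111, 218 and 179 in REG, and 138, 88.2 and 125 in hADMSCs-Exo, so every later library was above every LFG library. Mttp, which encodes the partner of P4hb in triglyceride transfer, had log2 fold changes of -0.23 ± 0.25 in REG and -0.47 ± 0.22 in hADMSCs-Exo against LFG, with adjusted p of 0.745 and 0.805 by edgeR's quasi-likelihood test. Without LFG 3 they were -0.19 ± 0.25 and -0.45 ± 0.21.

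Promoters are shown for P4ha1 and P4ha2 because these alpha subunits had no overlap between LFG and either later group. P4ha1 is a known target of hypoxia-inducible factor (HIF), whose core motif is ACGTG. The sequences are from RefSeq on GRCm38.p6, 250 bases before to 50 bases after the start that RefSeq gives the gene, in the direction of transcription, and capitals mark ACGTG on either strand (CACGT when it lies on the other one). P4ha1 is on chromosome 10 with its window at chr10:59323046-59323345, and P4ha2 is on chromosome 11 with its window at chr11:54100674-54100973, both on the plus strand. The start that RefSeq gives P4ha2 lies downstream of the first base of that gene in the deposited table, so its window falls inside the gene as placed above.
P4ha1: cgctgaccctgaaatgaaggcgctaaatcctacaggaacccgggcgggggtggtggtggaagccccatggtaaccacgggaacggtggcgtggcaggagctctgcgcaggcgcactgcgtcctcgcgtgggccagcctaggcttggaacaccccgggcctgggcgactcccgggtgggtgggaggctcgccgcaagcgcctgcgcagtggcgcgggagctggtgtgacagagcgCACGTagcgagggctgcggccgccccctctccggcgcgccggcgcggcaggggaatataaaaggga
P4ha2: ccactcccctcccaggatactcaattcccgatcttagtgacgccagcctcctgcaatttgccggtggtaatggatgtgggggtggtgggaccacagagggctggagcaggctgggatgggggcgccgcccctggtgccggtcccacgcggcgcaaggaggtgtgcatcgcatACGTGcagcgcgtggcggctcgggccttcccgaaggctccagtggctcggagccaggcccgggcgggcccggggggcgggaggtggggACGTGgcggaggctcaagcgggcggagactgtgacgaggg
A promoter was found for 5 of the 10 enzymes in that table. The motif occurred 1 time in P4ha1, 2 times in P4ha2, 2 times in P4hb and 1 time in Plod3, and not in this window of Plod1, while 19.6% of all 32851 promoters of the table held it. Both windows shown have a GC content of 70.3%, against a median of 52.7% over all promoters. CCAAT, searched on both strands, occurred 1 time each in Plod3 and P4hb and in 37.4% of all promoters. Neither TGANTCA, held by 7.81% of all promoters, nor the ER stress element, held by 0.119%, occurred in any of the 5 windows. Genes of a list of 13 known HIF targets had median log2 fold changes of 0.010 in REG and 0.018 in hADMSCs-Exo against LFG over the 11 tested. Pdk1, a kinase that limits entry of pyruvate into mitochondria, had the smallest p among them, at log2 fold changes of 1.07 ± 0.39 and 0.80 ± 0.39. Without LFG 3 the medians were 0.25 and 0.14, and no gene of the list was called.

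In the comparison of REG with LFG, 9 of the 10 enzymes could be tested and none passed an adjusted p under 0.05 with a log2 fold change of at least 1 in either direction by edgeR's quasi-likelihood test. Genome-wide the count was 0 of 12517 genes, a percentage of 0, against 1417 genes (11.3%) at an unadjusted p under 0.05, 239 (1.91%) by DESeq2 and 1285 (10.3%) by limma voom with quality weights. At an unadjusted p under 0.05, P4ha1 and P4ha2 were lower in REG and no enzyme was higher. These 2 of 9 compare with 6.70% of all genes tested that were lower at that level, while 4.62% were higher. The groups did not overlap for P4ha1 and P4ha2, both lower in REG, beside 19.0% of all genes in either direction, 10.1% lower and 8.89% higher. The median log2 fold change of the 9 enzymes was -1.04 and that of all genes -0.068. DESeq2 called 1 enzyme, P4ha1, and voom with quality weights, which gives deviating libraries less weight, called 6, namely Loxl1, Loxl2, Loxl3, Plod2, P4ha1 and P4ha2.

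Without LFG 3, when LFG had only 2 libraries, all 10 enzymes could be tested against REG and 6 were called, all lower in REG, in a fit that called 10.7% of all genes. Lox fell by 4.13 on the log2 scale with an adjusted p of 0.0145, Loxl2 by 2.27 with 0.0133, Plod2 by 2.24 with 0.0267, P4ha1 by 1.56 with 0.0159, Loxl1 by 1.5 with 0.0426 and Loxl3 by 1.19 with 0.0469, all by edgeR's quasi-likelihood test. P4ha2, whose LFG 3 value was high, had a smaller difference of -0.84 ± 0.28, and Plod1, Plod3 and P4hb stayed between -0.29 and 0.14. The number lower at an unadjusted p under 0.05 became 7 of 10 without LFG 3, where 19.1% of all genes were lower at that level, and the number without REG 2 was 1. In the same fit, 3 of 6 tested activated myofibroblast markers, 0 of 10 stellate, 0 of 5 smooth muscle, 2 of 9 macrophage, 3 of 6 cholangiocyte, 2 of 5 portal fibroblast, 1 of 5 mesothelial and 0 of 7 sinusoidal endothelial markers were called, all lower. Of 10 hepatocyte markers 2 were called, both higher in REG, namely Cyp2e1, a cytochrome P450, at 1.73 and Fgb, a fibrinogen chain, at 1.40. LFG 3 was singled out by its low stellate, myofibroblast and macrophage sums. The counts of those markers called without it are therefore partly set by that choice. The part of these markers in the differences of the enzymes was not tested.

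In the comparison of hADMSCs-Exo with LFG, all 10 enzymes were tested, all had negative log2 fold changes and none was called by edgeR's quasi-likelihood test. Over all 12489 genes the count was likewise 0, a percentage of 0, with 747 genes (5.98%) at an unadjusted p under 0.05, 60 (0.480%) called by DESeq2 and 1 (0.00801%) by limma voom. Lox, Loxl1, Loxl2, Plod2, P4ha1 and P4ha2 were lower at an unadjusted p under 0.05, which is 6 of 10 where 3.68% of all genes were lower and 2.30% higher. With the replicate number as a block, 3 of them were left, Loxl1, P4ha1 and P4ha2, beside 5.72% of all genes in both directions. The labels give no pairing of these libraries, and correlations between same-numbered ones in these data were the only ground for the block. Only P4ha1 and P4ha2 had groups without overlap, both lower, against 5.95% of all genes lower and 6.34% higher. The median log2 fold change was -1.02 for the enzymes and -0.059 for all genes. DESeq2 called 1 enzyme, Loxl1, with an adjusted p of 0.0361.

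Without LFG 3, 5 enzymes were called in hADMSCs-Exo against LFG, all lower, in a fit that called 5.97% of all genes. Lox fell by 3.54 on the log2 scale with an adjusted p of 0.0226, Loxl2 by 3.51 with 0.0226, Loxl1 by 3.45 with 0.0127, Plod2 by 2.18 with 0.0259 and P4ha1 by 1.13 with 0.0346, by edgeR's quasi-likelihood test. Loxl3 was at -1.16 with an adjusted p of 0.0703, P4ha2 at -0.77 with 0.163, and P4hb turned from -0.03 to 0.02. In the same fit, 4 of 6 tested activated myofibroblast markers, 2 of 10 stellate, 4 of 5 smooth muscle, 3 of 9 macrophage, 2 of 6 cholangiocyte, 1 of 5 portal fibroblast, 0 of 5 mesothelial and 0 of 7 sinusoidal endothelial markers were called, all lower. Of 10 hepatocyte markers 1 was called, Cyp2e1, higher in hADMSCs-Exo at 2.37. Here too, the counts of stellate, myofibroblast and macrophage markers called are partly set by the choice of LFG 3 through their sums. The part of the markers in the differences of the enzymes was likewise not tested. The count lower at an unadjusted p under 0.05 became 7 of 10 without LFG 3, where 15.7% of all genes were lower, and it was 2 or 3 without any other single library of these groups (2 without LFG 2 or hADMSCs-Exo 1). The comparisons with LFG share its libraries, so their values are only set side by side.

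Between hADMSCs-Exo and REG, which differ by the exosomes at the same time point, no enzyme was called by edgeR's quasi-likelihood test, and 1 of 12337 genes was (0.00811%). With limma voom and quality weights, which called 0.0243% of all genes, no enzyme was called either, and DESeq2, which called 67 genes (0.543%), called Loxl1. Loxl1 and Loxl2 were lower at an unadjusted p under 0.05 and none was higher, so 2 of 10 enzymes were lower where 4.69% of all genes were, and 5.34% were higher. The groups were apart for Loxl1, lower in hADMSCs-Exo, beside 7.47% of all genes, and for Lox, higher, beside 8.07%, out of 15.5% in either direction. The difference for Lox rests on 5 to 13 counts per library, with the highest REG library and the lowest hADMSCs-Exo library both at 10 counts, and was 0.62 ± 0.46 on the log2 scale. For the other 8 enzymes the groups overlapped. The median log2 fold change was 0.08 over the enzymes, 4 lower and 6 higher, and 0.0080 over all genes.

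The substrates and the markers of collagen-producing cells were read beside the enzymes. Col1a1, which encodes the main chain of type I collagen, had a log2 CPM of 8.02, 7.0 and 1.48 in LFG, 4.25, 4.83 and 4.0 in REG, and 2.55, 3.67 and 3.23 in hADMSCs-Exo. LFG 3 was again the lowest of all, and every hADMSCs-Exo library was below every REG library. Across the 9 libraries the log2 CPM of Loxl2 correlated with that of Col1a1 at r = 0.968, that of Loxl1 at r = 0.895, that of P4ha1 at r = 0.442 and that of P4ha2 at r = 0.082. Without LFG 3 the last 2 values were 0.730 and 0.695. The points share their library, its depth and its cell mix, so these values only describe.

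The summed FPKM of the stellate cell markers was 52.1 to 107 in REG and 29.8 to 74.1 in hADMSCs-Exo, and that of the activated myofibroblast markers 8.80 to 19.9 and 2.35 to 7.28. Of the 10 stellate markers, Ngfr, named after its values were seen, was at 0 in LFG 3 and none was at 0 elsewhere. In hADMSCs-Exo against REG, 3 of 10 stellate markers and 5 of 6 tested myofibroblast markers were lower at an unadjusted p under 0.05 (4.69% of all genes) and none was higher or called, with median log2 fold changes of -0.84 and -1.51. Against LFG the medians of the stellate and myofibroblast lists were -0.93 and -2.27 in hADMSCs-Exo and -0.16 and -0.93 in REG. Without LFG 3, which was singled out by low sums of these markers, they were -1.32 and -2.78, and -0.61 and -1.41. The 7 portal fibroblast markers, for another collagen-producing cell of the liver, had a summed FPKM of 7.14, 6.4 and 0.960 in LFG, 3.21 to 4.73 in REG and 2.73 to 4.62 in hADMSCs-Exo. None of the 5 that were tested passed an unadjusted p under 0.05 in hADMSCs-Exo against REG, all 5 overlapped, and their median was -0.012. Against LFG the medians of this list were -0.039 in hADMSCs-Exo and -0.82 in REG, and without LFG 3 they were -0.38 and -1.26. The part of these markers in the differences of Loxl1 and Loxl2 was not tested. In LFG 3 the stellate, myofibroblast and portal fibroblast sums were the lowest of the 9, and P4ha1 and P4ha2 were above all later libraries. That is a single library, and the part of the markers in the levels of P4ha1 and P4ha2 was likewise not tested.

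Other genes of the collagen pathway were read from lists. Of 10 fibrillar collagens and elastin, 8 were tested and none was called in any comparison of all 6 libraries. In hADMSCs-Exo against REG, 6 of them were lower at an unadjusted p under 0.05 (4.69% of all genes), all with no overlap between groups (7.47% of all genes), with a median log2 fold change of -1.18. They include Col3a1 at -1.73 ± 0.36, Eln, the gene of elastin, at -1.41 ± 0.29, and Col1a1 at -1.19 ± 0.31. By sign, 2 of the 8 were higher and none at that level, and 1 was above REG with no overlap (8.07% of all genes). Against LFG, 6 of 8 were lower at that level in hADMSCs-Exo (3.68% of all genes), with a median of -3.0, but the groups overlapped for all 8. In REG it was 0 of 8 (6.70% of all genes), with a median of -1.78 and 1 gene without overlap. Without LFG 3, 6 of 8 were called in each of these comparisons, in fits that called 5.97% and 10.7% of all genes, with medians of -3.51 and -2.28, and Col1a1 was at -4.38 ± 0.41 and -3.15 ± 0.35.

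Of 24 partners in collagen processing, 18 were tested in hADMSCs-Exo against REG and none was called. At an unadjusted p under 0.05, where 4.69% of all genes were lower, 4 were lower: Sparc, a collagen-binding matrix protein, at -1.41 ± 0.33, Adamts2, which cuts off the amino-terminal propeptide, at -1.36 ± 0.39, Serpinh1, the collagen chaperone HSP47, at -0.99 ± 0.35, and Crtap, of the prolyl 3-hydroxylation complex, at -0.58 ± 0.24. Bmp1, which removes the carboxy-terminal propeptide and also activates Lox, was higher at 0.49 ± 0.15. Against LFG, 4 of 18 were lower in hADMSCs-Exo (3.68% of all genes) and 1 of 20 in REG (6.70%). Without LFG 3 these became 11 of 20 and 11 of 21, where 15.7% and 19.1% of all genes were lower, and 4 and 3 were called (5.97% and 10.7% of all genes). P3h1, a prolyl 3-hydroxylase, was in both counts, at -0.66 ± 0.25 and -0.62 ± 0.24, with all LFG libraries above the later ones. Loxl4, the remaining lysyl oxidase gene, had 80, 18 and 2 counts in LFG and 1 to 12 in each later library, and with all libraries it was tested only in REG against LFG, at -1.39 ± 0.92. Without LFG 3 it was at -1.87 ± 0.60 there and at -2.82 ± 0.81 in hADMSCs-Exo, and it was not called.

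Folding factors of the ER stood beside P4ha1 and P4ha2. Of 12 such genes, all tested and none called, 4 were lower in REG and 5 in hADMSCs-Exo than in LFG at an unadjusted p under 0.05 (6.70% and 3.68% of all genes), none was higher, and 4 and 7 lay below LFG with no overlap (10.1% and 5.95% of all genes). Median log2 fold changes were -0.40 and -0.59. Hspa5, the chaperone BiP, had a log2 CPM of 10.14, 10.50 and 9.85 in LFG, 8.67, 8.60 and 9.10 in REG, and 8.95, 9.04 and 9.52 in hADMSCs-Exo, so LFG 3 was high here too. Its log2 fold changes were -1.37 ± 0.28 and -1.0 ± 0.30. Pdia4, Hsp90b1 and Dnajb11 were lower in both later groups at that level, with values from -0.77 to -0.55. Sdf2l1, a component of an ER chaperone complex, was at -0.97 ± 0.23 in hADMSCs-Exo, below LFG with no overlap, and at -0.42 ± 0.30 in REG, where the groups overlapped. Without LFG 3 the medians were -0.37 and -0.51, and 5 of 12 were lower in each comparison (19.1% and 15.7% of all genes) and 1 higher in REG. Of the 12 only Hspa5 was called, and only in REG, in a fit that called 10.7% of all genes. There it fell by 1.48 with an adjusted p of 0.0159 by edgeR's quasi-likelihood test. Between hADMSCs-Exo and REG none of the 12 passed, and the median was -0.11.

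Genes for the cofactors of these enzymes were read in the same way. Of 9 genes of ascorbate, copper and iron supply, none was called in any comparison of all 6 libraries, and Slc23a1, an ascorbate transporter, was the single one at an unadjusted p under 0.05, higher in REG than in LFG at 0.51 ± 0.17. Gulo, which makes ascorbate in mice, had a log2 CPM of 7.69, 8.51 and 9.22 in LFG, 8.79, 9.21 and 9.44 in REG, and 8.27, 9.29 and 9.44 in hADMSCs-Exo. The groups overlapped, with log2 fold changes of 0.58 ± 0.41 and 0.48 ± 0.47 against LFG. Without LFG 3 these were 1.06 ± 0.32 and 0.94 ± 0.42, and 2 of the 9 genes were higher and 1 lower at an unadjusted p under 0.05 in hADMSCs-Exo, against 12.8% and 15.7% of all genes. In REG 4 were higher and 1 lower, against 18.2% and 19.1% of all genes. Of the 9, 1 was called in REG, in a fit that called 10.7% of all genes. It was Atp7a, a copper pump that supplies secreted enzymes, falling by 1.94 with an adjusted p of 0.0192 by edgeR's quasi-likelihood test. Ccs, a copper chaperone, was at 0.91 in REG with an adjusted p of 0.036 by the same test, short of the limit on fold change.

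**Figure D3:**
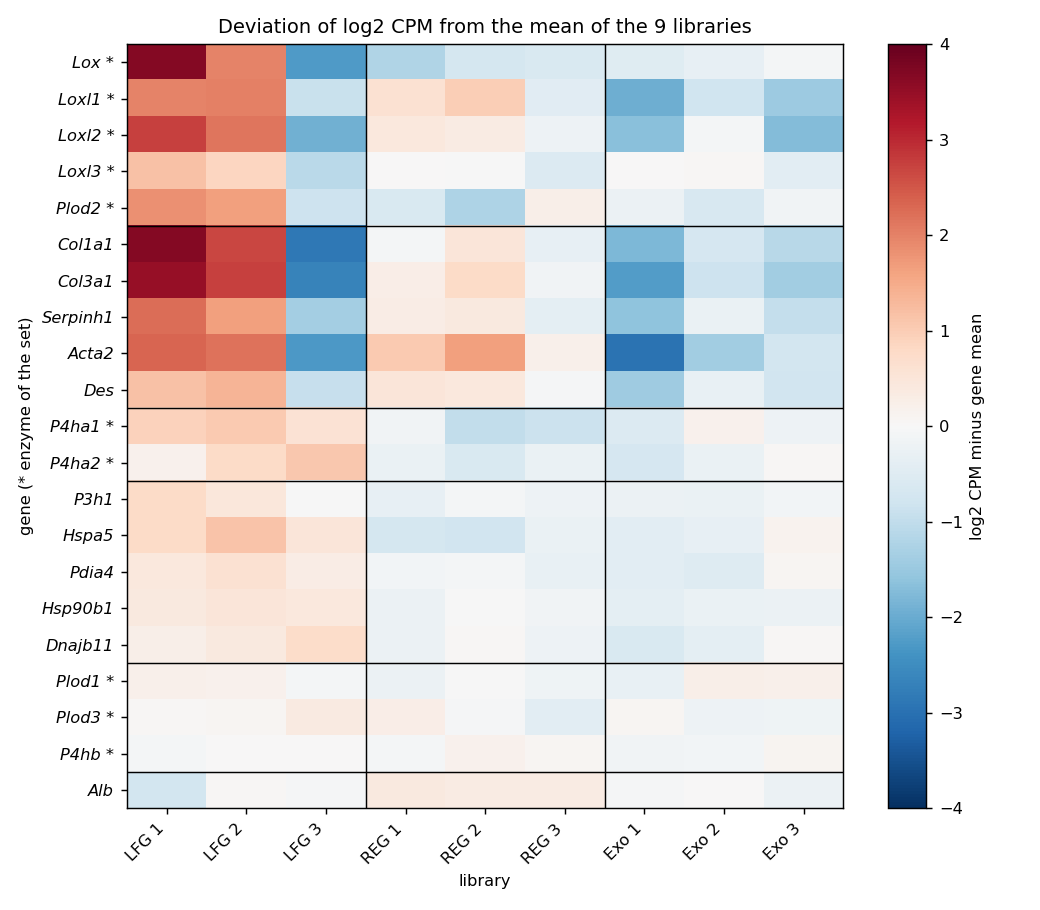
Log2 CPM of the 10 enzymes (marked by an asterisk) and of comparison genes, as the difference from the mean of the gene over the 9 libraries. Rows are genes, ordered after their values were seen, and columns are libraries. In the top blocks LFG 3 is blue beside red LFG 1 and LFG 2, whereas P4ha1, P4ha2 and most ER folding genes drawn are above their mean in all 3 LFG libraries. Of the 12 ER folding genes only Hspa5, Pdia4, Hsp90b1 and Dnajb11 are drawn, those lower in both later groups at an unadjusted p under 0.05. By sign, 2 genes of that list were higher in REG than in LFG and 1 in hADMSCs-Exo, and they are not drawn.

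The genes with the most similar profile differed between the enzymes. By Pearson's r of log2 CPM over the 9 libraries, Loxl1 was most like Des (r = 0.977), a filament gene of stellate and muscle cells, Boc (0.972) and Ppic (0.970). Loxl2 was most like Col4a2 (0.996), a basement membrane collagen, Ehd2 (0.990) and Sparc (0.989). Lox was most like the cell cycle factor Foxm1 (0.989), with Cyp4f18 (0.982) also among its leading genes, and Loxl3 was most like Tnfrsf10b (0.985), Hip1 (0.981) and Denn2b (0.979).

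For the hydroxylases, P4ha2 was most like Vmp1 (0.972), Manf (0.959), an ER stress-induced secreted factor, and Tfg (0.953), which acts in export from the ER. P4ha1 was most like Prkab2 (0.944), Adgrl1 (0.941) and Eif2ak3 (0.941), which encodes the ER stress kinase PERK. Plod2 was most like Rab3gap2 (0.982), Dnajc10 (0.967), an ER co-chaperone, and Dnaja4 (0.963). The highest values were lower for Plod1 (Slc27a1, 0.937), Plod3 (Selp, 0.936) and P4hb (Sri, 0.904), the enzymes with the smallest spread between libraries. These values are over 9 libraries that share depth and cell mix with both genes, and they are given as a description.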

How the data were processed

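Liver RNA of 3 groups (LFG, REG and hADMSCs-Exo, 3 libraries each) was analysed, out of 12 samples in the series. The other 3 samples (hADMSCs) were not analysed here. Columns named MSC_E were taken as the hADMSCs-Exo samples. The authors deposited unnormalized counts of reads on each gene, from Trizol RNA and NEBNext Ultra libraries. The deposited FPKM equals those counts scaled by length and total, with relative differences no larger than 9.19e-07. The submitters' processing notes name cutadapt 1.15, HISAT2 2.0.5, HTSeq 0.9.1, DESeq 1.30.0 and GRCm38, and the use of strand is not given in the sources used here.

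The test was that of edgeR 4.0.16 under R 4.3.3 (quasi-likelihood test, two-sided, TMM, edgeR's filter on low counts, the 6 libraries of each comparison) on the whole table, with Benjamini-Hochberg adjustment over all genes tested. Calls needed an adjusted p below 0.05 with a log2 fold change of 1 or more in either direction. Counts at an unadjusted p under 0.05 are set beside the share of all genes. Log2 CPM used a prior count of 2 and TMM over the 9 libraries. The TMM factors ran from 0.808 in LFG 3 to 1.38 in LFG 1, and a lower factor gives a higher log2 CPM. The script was tested on simulated data. Alternatives were RLE size factors, DESeq2 1.42.0, voom with quality weights (limma 3.58.1), a filter of only 1 count in all, a filter of 10 counts in each library, a joint fit of the 9 libraries, the replicate block and each library left out.

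The 10 enzymes and the gene lists were chosen with earlier results of these data known. All enzymes were named, and from each list up to 6 genes per comparison with the smallest p, beside Loxl4, P4ha3, Serpinh1, Mttp, Col1a1, Col3a1 and Gulo. The list genes named are among these unless stated. For likeness, the 3 genes with the highest r per enzyme were taken and the leading ones named. The result of 1 of them is not reported here.

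Total counts ranged from 13837445 to 19840917. Replicates differed by more than sampling noise (chi-square per gene of at least 27.0). For hADMSCs-Exo and LFG, deviations from the group means of same-numbered libraries correlated by 0.101, 0.308 and 0.180, all over 0.1, the only ground for treating those numbers as pairs. Versions of the other tools were Python 3.11.15, pandas 2.3.3 and matplotlib 3.10.9.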

Additional observations from a re-analysis of the deposited data

How the results depend on the processing

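The number of enzymes called was 0 in each comparison and stayed 0 under RLE size factors, both other filters on low counts, all 9 libraries in one fit and the replicate block. DESeq2 called 1 in hADMSCs-Exo against REG (Loxl1), 1 in hADMSCs-Exo against LFG (Loxl1) and 1 in REG against LFG (P4ha1), and voom with quality weights called 6 in REG against LFG. Leaving out 1 library gave 0 to 5 calls in hADMSCs-Exo against LFG, 0 to 6 in REG against LFG and 0 throughout in hADMSCs-Exo against REG, the highest counts being those without LFG 3. Lox was not tested in REG against LFG with the filter, and its fold change where it could be tested lay between -4.13 and -3.37. Of the fits leaving out 1 library, that without LFG 1 gave the smallest differences from LFG for Loxl2 (-1.05 in REG and -2.29 in hADMSCs-Exo), Loxl3 (-0.38 and -0.34) and Plod2 (-1.41 and -1.33). For P4ha2 the differences without LFG 1 were the largest, at -1.30 and -1.21.

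At an unadjusted p under 0.05, the count in hADMSCs-Exo against LFG moved from 6 to 3 with the replicate block and to 3 when at least 10 counts were required in every library, which left 7 enzymes to test. In hADMSCs-Exo against REG it moved from 2 to 1 with all 9 libraries in one fit and to 3 with voom quality weights, P4ha1 being higher there. In REG against LFG it moved from 2 to 4 with all 9 libraries and to 6 with voom quality weights. Leaving out 1 library gave 2 to 7, 1 to 2 and 1 to 7 in these comparisons, with 1 in hADMSCs-Exo against REG without REG 2 or hADMSCs-Exo 3. The replicate block changed no other call. Same-numbered libraries of hADMSCs-Exo and REG correlated by 0.159, 0.00938 and 0.0336, and those of REG and LFG by 0.415, -0.202 and 0.305, so those share only a number, with not every library correlating best with its own, and the block left the counts there at 2 and 2.

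The median fold change of the enzymes stayed between -1.14 and -0.80 in hADMSCs-Exo against LFG and between -1.34 and -0.69 in REG against LFG, while in hADMSCs-Exo against REG it lay between -0.036 and 0.15. Small differences changed sign when 1 library was left out. In hADMSCs-Exo against REG the log2 fold changes ranged from -0.24 to 0.66 for Plod2, -0.20 to 0.14 for Plod3, -0.086 to 0.27 for P4ha2 and -0.10 to 0.21 for Loxl3. In hADMSCs-Exo against LFG they ranged from -0.14 to 0.14 for Plod1 and -0.10 to 0.042 for P4hb. None did in REG against LFG. The causes of these shifts were not tested. Lox, Plod2 and Loxl4 had at most 27 counts in any REG or hADMSCs-Exo library, which limits the precision of their differences there. Loxl1 had 10 to 24 counts and Loxl2 10 to 37 in the hADMSCs-Exo libraries, which limits their differences from REG in the same way.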

Other observations

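Lysyl oxidase and lysyl hydroxylase genes also paired with each other to different degrees. Loxl1 and Loxl2 had r = 0.936 over the 9 libraries, 0.953 without LFG 3 and 0.905 over the 6 REG and hADMSCs-Exo libraries. Lox and Plod2 had r = 0.895 over the 9 libraries but 0.310 over those 6, where both had few counts. P4ha1 and P4ha2 had r = 0.784 over the 9 libraries and 0.833 without LFG 3, and P4ha1 and P4hb had -0.393. These values describe the libraries and carry no test.

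The ratio of P4ha1 to P4ha2 in FPKM was 8.18, 5.85 and 3.46 in LFG, 5.39, 3.75 and 3.20 in REG, and 5.41, 6.66 and 4.09 in hADMSCs-Exo, so the groups overlapped and P4ha1 was the more abundant in all 9 libraries.

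The 5 smooth muscle markers had a summed FPKM of 5.09, 9.87 and 0.708 in LFG, 2.22 to 3.75 in REG and 0.870 to 1.18 in hADMSCs-Exo. Against REG, 3 of the 4 tested were lower at an unadjusted p under 0.05 in hADMSCs-Exo (4.69% of all genes) and none was called, with a median log2 fold change of -2.69. Against LFG the median was -1.74 in hADMSCs-Exo over 2 tested genes and -0.52 in REG over 5, and without LFG 3, with all 5 tested, -3.24 and -1.03.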
